A study of Mus musculus with 30 samples.

Results

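The genes described are the leukocyte beta2 integrin subunits and the genes that lie next to Itgax on mouse chromosome 7, as measured in single cells of the mouse spleen. There are 7 of them among 32285 genes in the feature table, namely the alpha subunits Itgal (CD11a), Itgam (CD11b), Itgax (CD11c) and Itgad (CD11d), the shared beta subunit Itgb2 (CD18), Cox6a2, and the long noncoding RNA 4931431B13Rik. They were chosen by their measured levels in Smc3-WT against Smc3-cKO in these same libraries, then listed by symbol. The genotype values below are therefore a description and carry no p-value, and nothing is read from the counts of members past a threshold that stand beside them. Smc3 encodes a subunit of the cohesin ring, and the series concerns cohesin and PU.1 in conventional dendritic cells (cDC). Droplet 3′ single-cell RNA sequencing was made from splenocytes depleted of red blood cells, in 2 libraries of Smc3-WT and 2 libraries of Smc3-cKO. Mouse age is listed as 6 to 8 weeks for these libraries, as for the sorted cells of the series. The labels give neither the Cre driver nor the deleted exons of the conditional knockout, nor whether a library is 1 mouse or a pool, so p-values measure only the spread between these libraries. The other 26 samples of the series were not analysed here.

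Beta2 integrins are heterodimers in which 1 of the 4 alpha subunits pairs with CD18. CD11a/CD18 (LFA-1) binds ICAM ligands on other cells and is carried by nearly all leukocytes, CD11b/CD18 (Mac-1) serves myeloid adhesion and complement uptake, and CD11c/CD18 is the surface marker most used for dendritic cells. CD11d/CD18 is best known from red pulp macrophages of the spleen. Cox6a2 encodes a subunit of cytochrome c oxidase known from heart and skeletal muscle, and is a transcript known from plasmacytoid dendritic cells (pDC).

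Positions are those of RefSeq for GRCm38.p6, and the authors' build is given as mm10. Itgal lies at chr7:127296139-127335137, apart from the other alpha subunits. Itgam (chr7:128062640-128118491), Itgax (chr7:128129526-128150657) and Itgad (chr7:128173933-128205504) follow each other with gaps of 11.03 kb and 23.27 kb. The gene body of 4931431B13Rik (chr7:128192050-128203328) lies wholly inside that of Itgad, and Cox6a2 (chr7:128205435-128206366) overlaps the end of Itgad by 70 bases. Itgb2 lies on another chromosome, at chr10:77530329-77565708. Whether the counting used strand is not given in the sources used here, so UMIs of Itgad, 4931431B13Rik and Cox6a2 that fall in shared bases cannot be told apart, and reads shared by the related alpha subunit genes could be lost or split.

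Of the 7 genes, 2 had a promoter in the RefSeq table (GRCm38.p6, plus strand), and these are shown because Itgam and Itgax, although neighbours, stood in opposite order in dendritic cells and monocytes. The stretches end at the base before the annotated gene, at chr7:128062390-128062639 for Itgam and chr7:128129300-128129525 for Itgax. Capitals mark GAGGAA, the core of PU.1 sites, and GGAAGT, a core shared by ETS factors, searched on both strands.
Itgam: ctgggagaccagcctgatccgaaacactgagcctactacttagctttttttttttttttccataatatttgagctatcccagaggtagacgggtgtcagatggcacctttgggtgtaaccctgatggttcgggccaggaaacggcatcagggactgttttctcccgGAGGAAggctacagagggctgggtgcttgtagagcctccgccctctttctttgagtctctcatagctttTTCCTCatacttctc
Itgax: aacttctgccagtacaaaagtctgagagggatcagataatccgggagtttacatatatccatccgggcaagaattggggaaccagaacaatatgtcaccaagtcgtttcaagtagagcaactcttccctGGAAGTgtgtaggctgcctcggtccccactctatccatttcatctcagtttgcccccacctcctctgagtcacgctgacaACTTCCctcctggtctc
GAGGAA stood at 84 and 15 bases before the start of Itgam, the second on the minus strand, and was not found in the Itgax window. GGAAGT stood at 97 and 17 bases before the start of Itgax, the second on the minus strand, and was not found in the Itgam window. GAGGAA was present in 23.3% of 32851 promoter windows of 250 bases and GGAAGT in 17.1% of windows of 226 bases, so both are common, and a match is no more than a match of letters.

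The libraries held 40367056 to 51299056 UMIs, and 44793 cells were kept. Smc3-WT replicate 1 had the highest median share of mitochondrial UMIs, at 7.51% against 3.25% to 5.64%. Cells were placed in classes by fixed marker lists that contain none of the 7 genes, and each class is one of cells "like" its name (cDC1-like, NK-like and so on), a suffix left out below. Cells per library were 21 to 57 for cDC1, 44 to 119 for cDC2, 28 to 80 for pDC, 43 to 298 for classical monocytes, 82 to 251 for nonclassical monocytes, 27 to 174 for macrophages, 34 to 140 for neutrophils, 122 to 207 for NK cells, 1138 to 3693 for T cells and 3713 to 8178 for B cells. Levels are CPM, the UMIs (unique molecules counted) of a gene in each 1000000 UMIs of the class in a library, and values are given as Smc3-WT replicates 1 and 2 and then Smc3-cKO replicates 1 and 2. They are not scaled by length and are compared only within a gene. Smc3 transcript overlapped between genotypes in NK cells, at 115.5, 156.8, 126.5 and 149.2 CPM. Both Smc3-cKO libraries were above both Smc3-WT libraries in cDC2 (93.8, 92.4, 119.5 and 115.5 CPM) and cDC1 (39.4, 88.1, 136.6 and 143.8 CPM) and below them in neutrophils (94.3, 173.4, 76.9 and 75.1 CPM). Since the deleted part is not known, a 3′ count need not report the deletion. Pairs of libraries shared 36 to 61 cell barcodes, at most 0.432% of the smaller library.

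In Smc3-WT spleen each alpha subunit had its own order of classes. Itgax was highest in cDC2, at 303.1 and 339.2 CPM, followed by cDC1 at 201.1 and 179.8 CPM, NK cells at 167.2 and 176.7 CPM and nonclassical monocytes at 121.1 and 59.0 CPM. The next classes, pDC, neutrophils, macrophages and classical monocytes, overlapped in their ranges, and T and B cells lay under 5 CPM. Itgam was highest in neutrophils, at 920.8 and 976.4 CPM, then in classical monocytes, nonclassical monocytes, NK cells and cDC2 with no overlap between neighbours. Itgal was highest in nonclassical monocytes, at 1344 and 1583 CPM, and was found in all 10 classes, with the lowest levels in macrophages at 25.9 and 17.2 CPM. Itgb2 followed a similar course, from 528.6 and 362.7 CPM in nonclassical monocytes down to 38.8 and 31.3 CPM in B cells, and macrophages, with little Itgal, had 131.0 and 189.1 CPM of Itgb2.

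**Figure D1:**
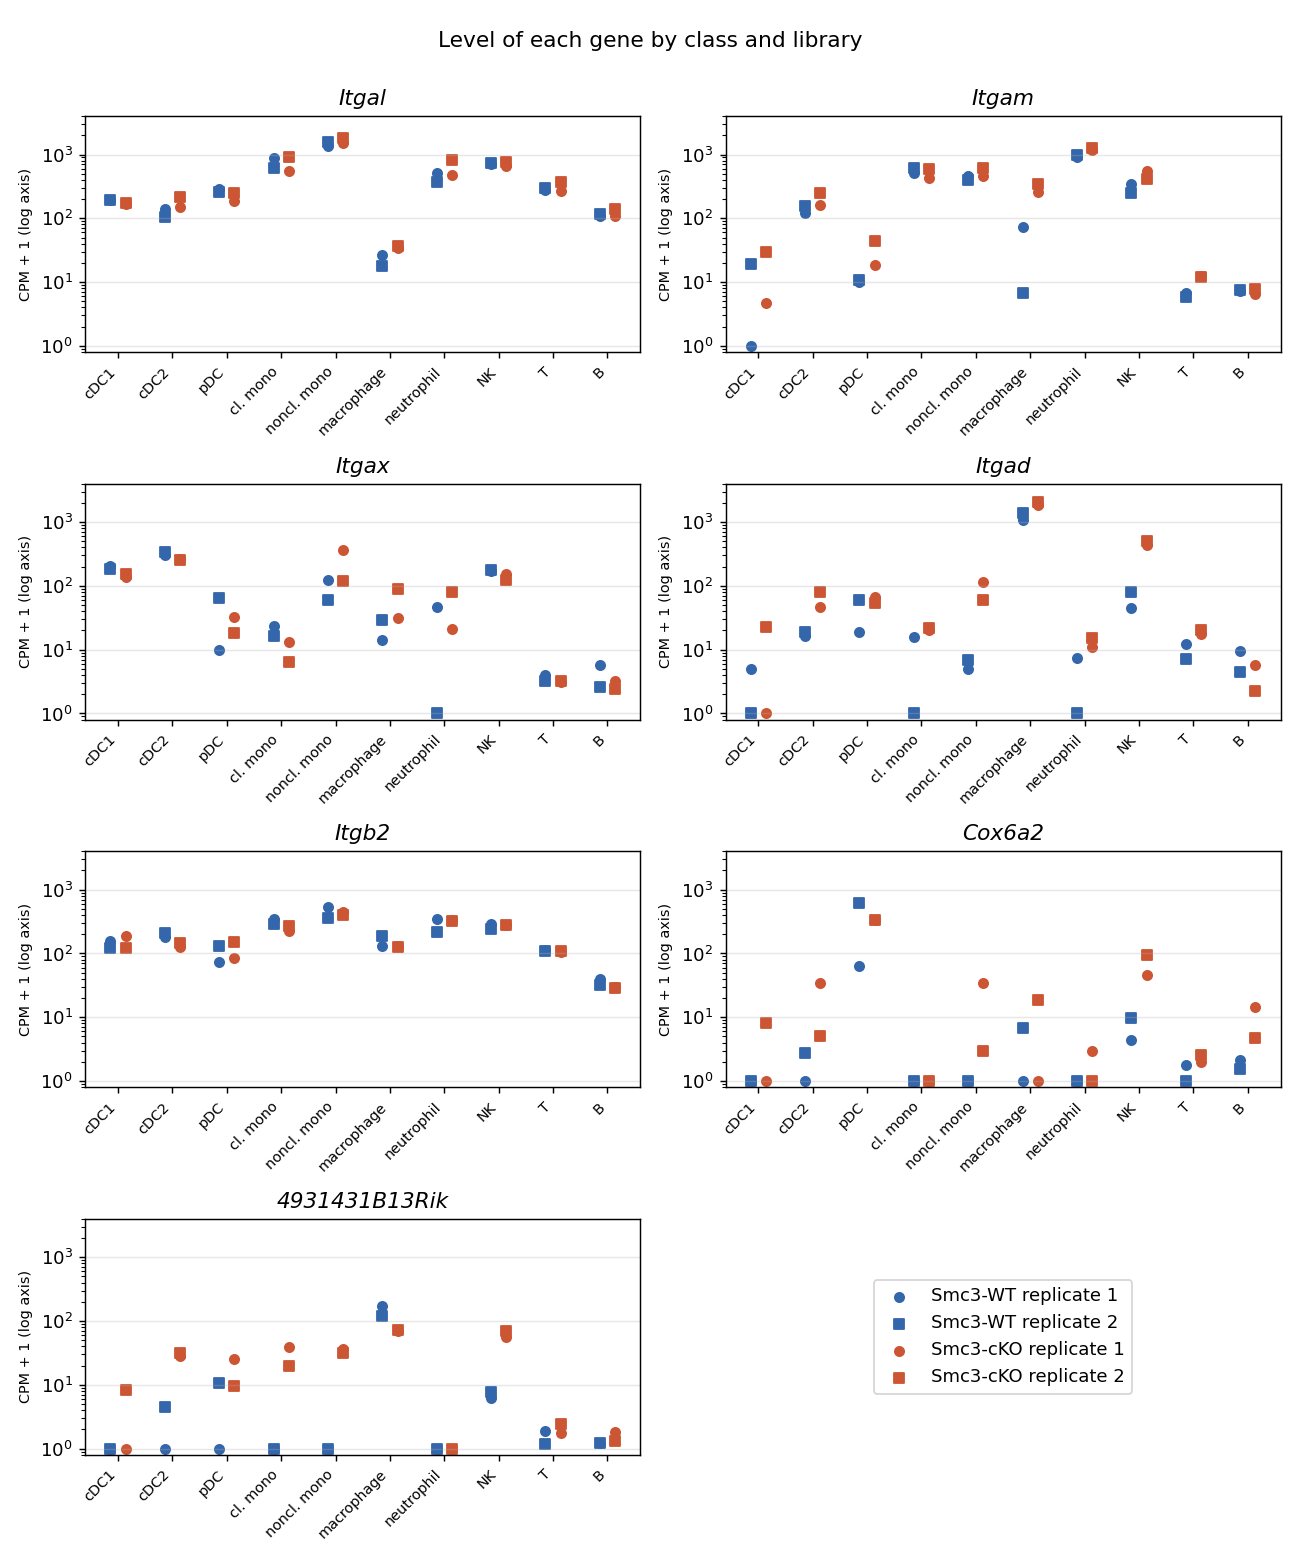
Level of each gene as CPM + 1 on a log axis, by class (x axis), with 1 point per library; Smc3-WT libraries are blue and Smc3-cKO libraries orange, circles are replicate 1 and squares replicate 2. Itgad is above all other classes in macrophages (1074 to 2044 CPM). Cox6a2 has its highest mean in pDC, but the lowest pDC point (62.8 CPM, Smc3-WT) lies under the highest NK point (92.2 CPM, Smc3-cKO). The Smc3-cKO points of Itgad, Cox6a2 and 4931431B13Rik lie above the Smc3-WT points in NK cells.

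Classes were tested against each other within Smc3-WT with edgeR's quasi-likelihood test, the library as a block and Benjamini-Hochberg adjustment over 8737 genes. The marker lists hold no member and the members were chosen on the genotype contrast, but the choice was made with levels in these libraries known, so the counts of members past the threshold are no independent support. Between cDC2 and cDC1, where 6.97% of genes passed, Itgam was the 1 gene of the 7 that did. It stood at 118.7 and 156.3 CPM in cDC2 against 0 and 18.4 CPM in cDC1, 3.76 ± 0.74 higher on the log2 scale (± is the standard error of the fit throughout; adjusted p = 0.0032). Itgax was 0.67 ± 0.47 higher in cDC2 and did not pass (adjusted p = 0.48).

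Between cDC2 and classical monocytes, with 10.7% of genes passing, 3 of the 7 passed in edgeR's test. Itgax was 4.13 ± 0.67 higher in cDC2 on the log2 scale (adjusted p = 0.00046), with monocyte levels of 22.1 and 15.2 CPM. Itgam was 2.05 ± 0.46 lower (log2 change -2.05, adjusted p = 0.0063) and Itgal 2.67 ± 0.30 lower (log2 change -2.67, adjusted p = 1.3e-05). Itgax and Itgam thus stood in opposite order in these classes.

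Plasmacytoid cells differed from cDC2 in 4 of the 7 genes, against 12.2% of all genes. Itgax, at 9.0 and 62.4 CPM in pDC, was lower by a log2 change of -2.77 ± 0.58, and Itgam by -3.81 ± 0.80 (adjusted p = 0.0028 and 0.0027 in edgeR's test). Itgal was higher by 1.19 ± 0.30 (adjusted p = 0.012), a call lost without the filter on low counts (adjusted p = 0.088). In the Smc3-cKO libraries the same difference was 0.25 (adjusted p = 0.59). Cox6a2 stood at 62.8 and 607.9 CPM in pDC against 0 and 1.78 CPM in cDC2 and was higher by 8.22 ± 1.35 in edgeR (adjusted p = 0.00069), and DESeq2 did not call it (8.19, adjusted p = 0.13). Its pDC level in Smc3-WT replicate 1 rests on 7 UMIs.

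Among lymphocytes, against T cells, NK cells passed for 5 of the 7 genes in edgeR's test, where 9.56% of all genes did. Itgam was higher by 5.72 ± 0.52 on the log2 scale and Itgax by 5.97 ± 0.57 (adjusted p = 3.4e-07 and 5.6e-07). Itgad, at 44.8 and 79.5 CPM in NK cells and 11.1 and 6.20 CPM in T cells, was higher by 2.82 ± 0.53 (adjusted p = 0.0011). Itgal was higher by 1.27 ± 0.27 and Itgb2 by 1.18 ± 0.31 (adjusted p = 0.0028 and 0.015). T cells in turn were above B cells for Itgal (1.27 ± 0.26) and Itgb2 (1.60 ± 0.30), 2 of the 7 genes against 18.7% of all genes (adjusted p = 0.0012 and 0.00047 in edgeR). Between nonclassical and classical monocytes 0.916% of genes passed and none of the 7 did by edgeR, while 2 of them had an unadjusted p under 0.05, Itgal (1.003 ± 0.27 higher) and Itgax (2.28 ± 0.76 higher). DESeq2 called Itgal there (adjusted p = 0.00084), as did edgeR with a stricter gate (adjusted p = 0.049), and edgeR without the filter on low counts called Itgax (2.34, adjusted p = 0.018).

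Itgad and the noncoding RNA inside it were genes of macrophages in Smc3-WT. Itgad stood at 1074 and 1370 CPM there and at most at 79.5 CPM in any other class. For 4931431B13Rik the macrophage levels were 171.5 and 120.4 CPM, and the next class, NK cells, had 5.17 and 6.63 CPM. Over 22 sums of 11 classes in Smc3-WT the genes most like each member by Pearson's r of log2(CPM + 5) were 4931431B13Rik (0.947), Col19a1 (0.918) and Dst (0.910) for Itgad, and Mpzl1 (0.949), Itgad (0.947) and Gm4951 (0.947) for 4931431B13Rik. For Itgax they were Kcnip3 (0.903), Cdk14 (0.828) and Afdn (0.804), for Itgam Nhsl2 (0.941), Xdh (0.899) and Anxa2 (0.887), and for Itgal Pbxip1 (0.903), Diaph1 (0.899) and Mfsd6 (0.894). For Itgb2 they were Myo1f (0.965), Cln3 (0.924) and Cers6 (0.907), and for Cox6a2 Klk1b27 (0.969), Serpinh1 (0.962) and Sh3bgr (0.956). These points share libraries and depth, and the values describe the pattern only. Among the members, Itgb2 followed Itgal (r = 0.744) and Itgam (r = 0.748) more closely than Itgax (r = 0.566) or Itgad (r = 0.157).

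Between genotypes, the largest differences of the 7 genes lay just beyond Itgax, in Itgad, 4931431B13Rik and Cox6a2, and NK cells showed all 3. The sources used here do not say what sequence the Cre transgene of Smc3-cKO carries. Whether these cells hold extra copies of genes near Itgax was not tested, so the counts cannot be assigned to the genes at their own place in the genome. Itgad stood at 44.8, 79.5, 443.7 and 501.9 CPM in NK cells, from 26, 36, 235 and 185 UMIs. Both Smc3-cKO libraries were above both Smc3-WT libraries, with a log2 change (Smc3-cKO over Smc3-WT in every case) of 2.90 ± 0.31. 4931431B13Rik stood at 5.17, 6.63, 54.8 and 67.8 CPM, a log2 change of 3.29 ± 0.52. Cox6a2 stood at 3.45, 8.83, 45.3 and 92.2 CPM, a log2 change of 3.42 ± 0.62. The genotypes did not overlap in any of these.

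The other members in the same NK cells were closer between genotypes. Itgam, whose gene lies on the other side of Itgax, stood at 342.9, 247.3, 555.1 and 412.4 CPM, a log2 change of 0.67 ± 0.28 without overlap. Itgax stood at 167.2, 176.7, 152.9 and 122.1 CPM, a log2 change of -0.35 ± 0.26, also without overlap but in the opposite direction. Itgal and Itgb2 overlapped between genotypes, with log2 changes of -0.06 ± 0.27 and 0.03 ± 0.24. All 7 genes passed the filter on low counts in NK cells, and Itgad was the 1 member among the 4 of 6828 genes past the threshold there, 0.0586% of genes. Smc3-cKO was above Smc3-WT without overlap for 4 members against 15.3% of all tested genes, and below for 1 member against 11.6%. Since the list was drawn from this contrast, nothing is read from these counts.

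The difference in NK cells was also one in how many cells held a UMI. Itgad was detected in 21 of 207 and 25 of 192 Smc3-WT cells (10.1% and 13%) and in 87 of 147 and 64 of 122 Smc3-cKO cells (59.2% and 52.5%). Thinned to 1500 UMIs per cell, leaving out 3, 50, 12 and 11 shallower cells, the shares were 5.39%, 9.15%, 42.2% and 44.1%. The exact binomial intervals (Clopper-Pearson, 95%, counting error only) reached 15.2% at most in Smc3-WT and 33.8% at least in Smc3-cKO. They treat cells as independent within a library and do not measure the spread between libraries. Itgad was chosen on this contrast, so nothing is read from the gap between the intervals. In B cells, which served as the background, 1.46%, 0.506%, 0.725% and 0.170% of cells held an Itgad UMI at the same depth (2.52%, 0.978%, 2.07% and 0.358% before thinning). Median depth was 2556, 2091, 3246 and 2840 UMIs in NK cells and 2708, 2595, 4156 and 2540 UMIs in B cells.

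Cox6a2 was spread over far fewer NK cells. A UMI was found in 2 and 1 Smc3-WT cells and in 12 cells of each Smc3-cKO library, with up to 7 and 8 UMIs in 1 cell of the latter. For 4931431B13Rik the cells with a UMI numbered 3, 2, 26 and 19. Itgax was detected in 33.8%, 29.7%, 38.1% and 28.7% of NK cells, with no separation of the genotypes (17.2%, 22.5%, 22.2% and 13.5% after thinning).

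**Figure D2:**
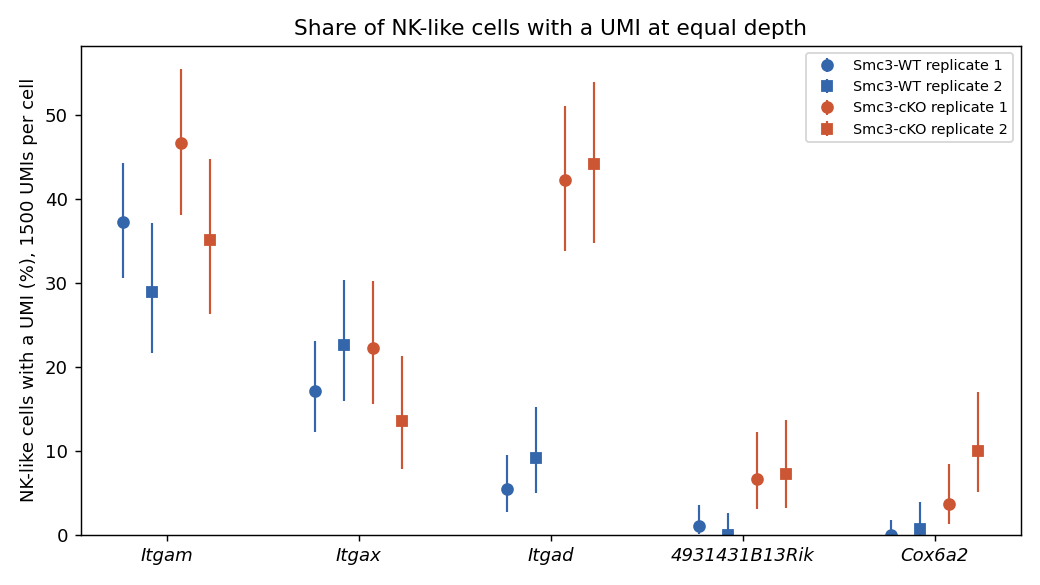
Share of NK-like cells with at least 1 UMI of each gene after thinning every cell to 1500 UMIs (y axis, %), with 1 point per library and exact 95% binomial intervals as bars; blue is Smc3-WT and orange Smc3-cKO. For Itgad the Smc3-cKO libraries lie at 42.2% and 44.1% against 5.39% and 9.15%, while the Itgax shares overlap between the genotypes. The genes were chosen on this contrast, so nothing is read from gaps between the bars.

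Side values were taken for the classes in which these genes are highest. The 10 macrophage markers summed to 224.0 and 110.4 CPM in Smc3-WT NK cells and to 124.6 and 32.6 CPM in Smc3-cKO NK cells, with 10, 10, 10 and 3 of the 10 detected. There were 26 Itgad UMIs beside 15 of C1qa in Smc3-WT replicate 1, 36 beside 1 in replicate 2, 235 beside 9 in Smc3-cKO replicate 1 and 185 beside 0 in replicate 2. In macrophages themselves the ratio of Itgad to C1qa UMIs was 1.62, 1.10, 2.06 and 1.90. The part of macrophage RNA in the NK values was not tested. Siglech, the defining pDC marker, had 1 UMI in all NK cells of the 4 libraries, while Cox6a2 had 64 in them. The pDC markers summed to 520.4, 379.8, 506.0 and 496.5 CPM in NK cells, with 5, 2, 4 and 3 of 10 detected, and did not separate the genotypes. Of the cells, cluster 19 (leading genes Klra9, Cdc20b and Entpd1) held 96.6%, 94.8%, 93.2% and 80.3%, and within it Itgad stood at 45.3, 76.7, 479.1 and 601.8 CPM.

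Nonclassical monocytes, the patrolling monocytes of the blood, showed the same genes. Itgad stood at 4.04, 5.90, 112.1 and 59.9 CPM, from 1, 2, 112 and 31 UMIs, a log2 change of 4.05 ± 0.64. 4931431B13Rik had no UMI in either Smc3-WT library and 36 and 30.9 CPM in Smc3-cKO, at least 6.71-fold higher against a floor of 3 UMIs over the Smc3-WT group. Cox6a2 likewise had no UMI in Smc3-WT, and stood at 33.0 and 1.93 CPM in Smc3-cKO, at least 4.39-fold higher over the group, but 33 of its 34 UMIs came from Smc3-cKO replicate 1. It did not pass the filter on low counts. None of these genes overlapped between genotypes.

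Itgax was also high in nonclassical monocytes of 1 Smc3-cKO library. It stood at 121.1, 59.0, 360.2 and 119.9 CPM, so the genotypes overlapped, and the log2 change was 1.48 ± 0.49 and 0.42 without Smc3-cKO replicate 1. Different clusters held most of the class in the libraries. Cluster m19 (leading genes Fabp4, Cd300e and Ly6a) held 14.6%, 27.6%, 71.7% and 22.2% of the cells. Within m19 Itgax stood at 74.1, 96.6, 452.0 and 170.2 CPM from 12, 34, 180 and 38 cells. Itgad stood there at 0, 0, 153.1 and 85.1 CPM, again with no overlap. Cluster m5 (leading genes Chil3, Marcksl1 and Zcchc24) held 3.66%, 48.8%, 14.7% and 53.8% of the cells. In m5 Itgad overlapped, at 6.27 CPM in Smc3-WT replicate 2 and at 6.07 and 60.65 CPM in Smc3-cKO. These values came from 1, 1 and 16 UMIs. Itgam (456.0, 398.0, 459.2 and 613.0 CPM), Itgal and Itgb2 differed by log2 changes of 0.31 ± 0.28, 0.17 ± 0.32 and -0.08 ± 0.28. Of 7 members 6 passed the filter and none passed the threshold, against 0.0164% of genes, and 3 were higher and 0 lower without overlap, against 16.1% and 14.9% of genes. The macrophage marker sum was 407.5, 218.2, 202.1 and 214.6 CPM. The part of macrophage RNA in the nonclassical monocyte values was not tested.

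In classical monocytes, the Ly6C-high blood monocytes, 4931431B13Rik was absent from both Smc3-WT libraries and stood at 38.6 and 18.6 CPM in Smc3-cKO, from 38 and 17 UMIs. This is at least 4.48-fold higher against the floor of 3 UMIs over the group. Itgad stood at 14.8, 0, 19.3 and 20.8 CPM on 2 UMIs in Smc3-WT, and Cox6a2 had no UMI in any library. Itgam, Itgal and Itgb2 had log2 changes of -0.11 ± 0.39, -0.02 ± 0.44 and -0.34 ± 0.32. With 5 of 7 members past the filter, none passed the threshold, as 0% of genes did in edgeR's test, while DESeq2 called 0 and 165 of 7098 genes were under 0.05 before adjustment. Smc3-cKO was higher without overlap for 2 members and lower for 1, against 15.8% and 13.8% of genes.

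Among conventional dendritic cells the cDC2 carried this pattern at lower levels. Itgad stood at 15.6, 17.8, 45.9 and 77.9 CPM, a log2 change of 1.88 ± 0.49. 4931431B13Rik stood at 0, 3.55, 27.6 and 30.6 CPM, from 2 UMIs in Smc3-WT and 31 in Smc3-cKO, a log2 change of 3.55 ± 0.86. Both genes were above without overlap. Cox6a2 stood at 0, 1.78, 33.7 and 4.17 CPM, with 11 of its 14 Smc3-cKO UMIs in replicate 1, and did not pass the filter.

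Itgax and its partner chain were lower in Smc3-cKO cDC2. Itgax stood at 303.1, 339.2, 260.4 and 250.4 CPM, a log2 change of -0.36 ± 0.27, and Itgb2 at 181.2, 209.6, 125.6 and 146.1 CPM, a log2 change of -0.54 ± 0.28. The genotypes did not overlap for either. Itgal (140.6, 103.0, 150.1 and 217.0 CPM) and Itgam (118.7, 156.3, 159.3 and 246.2 CPM) were above without overlap, by log2 changes of 0.61 ± 0.31 and 0.54 ± 0.32. So 4 of the 6 members past the filter were higher and 2 lower without overlap, against 20% and 18.7% of all tested genes, and none of the 6 passed the threshold that 0.320% of genes passed.

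The cDC2 of the 2 genotypes were drawn from clusters in different proportions. Cluster m1 (leading genes Abcb1a, Gpr82 and Ccdc192) held 59.7%, 73.8%, 31.8% and 41.2% of cDC2, and cluster m18 (Cd209d, Mrc1 and Mgl2) held 8.96%, 13.1%, 34.1% and 48.7%. Within m1 Itgax stood at 343.1, 364.9, 353.5 and 343.9 CPM from 40, 79, 14 and 49 cells, and the genotypes overlapped. In m18 it stood at 183.3 CPM in Smc3-WT replicate 2 and at 172.9 and 136.0 CPM in Smc3-cKO, from 14, 15 and 58 cells. The lower Itgax of Smc3-cKO cDC2 was therefore not seen within m1. Itgb2 did stay lower within m1, at 223.6, 216.5, 132.6 and 152.5 CPM, without overlap. In m18 Itgb2 overlapped, at 157.1 CPM in Smc3-WT replicate 2 and at 201.8 and 153.4 CPM in Smc3-cKO. Itgad stood at 26, 17.0, 77.3 and 142.7 CPM within m1, and the genotypes did not overlap there. In m18 they did, with Itgad at 13.1 CPM in Smc3-WT replicate 2 and at 9.61 and 28.9 CPM in Smc3-cKO, from 1, 1 and 10 UMIs.

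In cDC1, the cross-presenting subset, Itgax stood at 201.1, 179.8, 136.6 and 151.0 CPM, a log2 change of -0.56 ± 0.36 without overlap. Itgal was lower by a log2 change of -0.33 ± 0.36, and Itgb2 overlapped (0.04 ± 0.38). Itgam, Itgad, 4931431B13Rik and Cox6a2 did not pass the filter, with 5, 3, 1 and 1 UMIs in Smc3-cKO. Of the 3 members past the filter, 0 were higher and 2 lower without overlap, against 19.7% and 10.7% of genes, and none passed the threshold (0% of genes in edgeR's test, with 192 of 4728 at an unadjusted p under 0.05 and 13 called by DESeq2).

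The pDC, the class with the highest Cox6a2, did not share the pattern. Cox6a2 stood at 62.8, 607.9, 339.2 and 339.4 CPM, so the 2 Smc3-WT libraries lay on either side of Smc3-cKO, a log2 change of -0.15 ± 0.69 that became -0.92 without Smc3-WT replicate 1 and 2.42 without Smc3-WT replicate 2. Itgad overlapped as well, at 17.9, 59.2, 66.5 and 52.2 CPM. Itgal was lower without overlap, at 287.2, 256.3, 184.0 and 248.0 CPM, a log2 change of -0.39 ± 0.30. This was 1 of 4 members past the filter, and 0 were higher, against 11.3% of genes lower and 19.0% higher without overlap. None passed the threshold (0% of genes in edgeR's test, with 170 of 4941 at an unadjusted p under 0.05 and 0 called by DESeq2).

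In B cells, Cox6a2 was the 1 member higher in Smc3-cKO without overlap among those past the filter. It stood at 1.12, 0.527, 13.7 and 3.70 CPM, from 22, 13, 234 and 84 UMIs, a log2 change of 3.37 ± 0.75 without overlap. The UMIs of Smc3-cKO came from 155 of 3713 and 57 of 7540 cells, with up to 17 and 6 UMIs in 1 cell. They were concentrated in cluster 15 (leading genes Agbl1 and Reln), where Cox6a2 stood at 1.45, 2.16, 66.1 and 24.5 CPM and 104 of 597 and 33 of 798 Smc3-cKO cells held a UMI. In that cluster 4 of 937 and 7 of 1293 Smc3-WT cells held one.

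Itgad in the same B cells overlapped between genotypes, at 8.65, 3.53, 4.85 and 1.28 CPM. For each UMI of C1qa, a complement gene of macrophages, there were 0.383, 0.478, 0.392 and 0.433 UMIs of Itgad in the 4 libraries. These ratios were lower than those given above for macrophages themselves. The part of macrophage RNA in the B cell values was not tested. The 10 macrophage markers summed to 220.2, 80.6, 95.6 and 41.8 CPM in B cells. Siglech stood at 3.10, 0.933, 1.52 and 0.837 CPM and the 10 pDC markers together at 133.6, 102.0, 115.1 and 104.0 CPM, with no separation of the genotypes. Itgb2 was lower without overlap, at 38.8, 31.3, 29.0 and 27.4 CPM, a log2 change of -0.34 ± 0.17. Of 6 members past the filter, 1 was higher and 1 lower without overlap, against 13.2% and 10.1% of genes, and none passed the threshold in edgeR's test (0% of genes, with 379 of 13596 at an unadjusted p under 0.05 and 5 called by DESeq2).

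**Figure D3:**
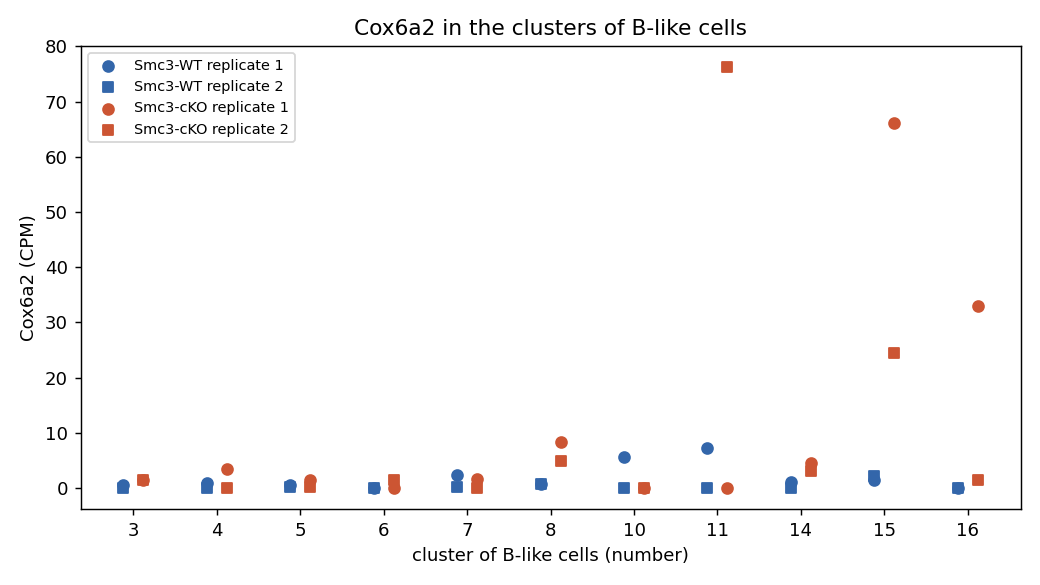
Cox6a2 in CPM (y axis, linear) in each numbered cluster of B-like cells (x axis) with at least 10 cells in every library, 1 point per library; blue is Smc3-WT and orange Smc3-cKO. Cluster 15 has 66.1 and 24.5 CPM in the Smc3-cKO libraries against 1.45 and 2.16 CPM; the point of cluster 11 at 76.2 CPM rests on 4 UMIs in 20 cells and that of cluster 16 at 32.9 CPM on 25 UMIs in 7 cells.

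T cells had low levels of Itgad and Itgam, with the highest Itgad levels of the clusters in 1 of them. Itgad stood at 11.1, 6.20, 16.5 and 19.5 CPM in all T cells, a log2 change of 1.07 ± 0.32, and Itgam at 5.79, 4.90, 11.4 and 11.1 CPM, a log2 change of 1.05 ± 0.28, both without overlap. In cluster 17, led by Klra7, Ccl5 and Lrmda, Itgad stood at 116.8, 35.4, 143.2 and 152.4 CPM. Itgam stood at 9.35, 2.36, 123.3 and 45.5 CPM in these cells, from 2, 2, 37 and 46 UMIs. Both were higher in Smc3-cKO without overlap there. Cluster 17 held 2.90%, 6.43%, 5.27% and 7.23% of T cells. Itgad was also higher without overlap in cluster 2 (leading genes Il2ra, Nrp1 and Foxp3), at 4.02, 6.74, 18.35 and 11.77 CPM. The largest T cell cluster, cluster 0, had Itgad at 6.24, 2.03, 7.82 and 4.77 CPM, with overlap. Clusters 1 (9.545, 5.24, 4.74 and 7.52 CPM) and 26 (24.3, 0, 0 and 2.42 CPM) overlapped as well. Of 5 members past the filter, 2 were higher and 1 lower without overlap in all T cells, against 12.9% and 10.1% of genes, and 0% of genes passed the threshold in edgeR's test (302 of 12374 at an unadjusted p under 0.05, 1 called by DESeq2).

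Macrophages, in which no genotype test was planned, differed in another way. Itgad stood at 1074, 1370, 1833 and 2044 CPM, 1.59-fold higher in the mean of Smc3-cKO. 4931431B13Rik, inside the same gene, stood at 171.5, 120.4, 69.3 and 71.7 CPM, 0.483-fold. The UMIs of 4931431B13Rik per UMI of Itgad were 0.160, 0.0879, 0.0378 and 0.0351. The 2 genes thus differed in opposite directions in macrophages, and neither overlapped between genotypes, although only 4 UMIs of 4931431B13Rik stand behind the last value. The share of all genes without overlap was not counted in macrophages. In every class with a genotype test at least 11.7% of genes were higher and at least 10.1% lower without overlap. For no gene in macrophages is anything read from non-overlap alone.

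Itgam separated the macrophages by genotype as well. It was detected in 3 of 174 and 1 of 82 Smc3-WT macrophages and in 28 of 67 and 11 of 27 Smc3-cKO macrophages (1.72%, 1.22%, 41.8% and 40.7%). Its levels were 71.2, 5.73, 253.2 and 340.7 CPM, and the first of these came from 44 UMIs in the 3 cells. The 8 classical monocyte markers summed to 451.3, 68.8, 75.4 and 125.5 CPM in the same cells and the 12 neutrophil markers to 177.9, 286.6, 84.4 and 233.1 CPM. The part of such RNA in the Itgam values was not tested. Itgb2 stood at 131.0, 189.1, 129.6 and 125.5 CPM, so the Smc3-cKO values lay just under the lower Smc3-WT value.

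In neutrophils, which use Mac-1 for adhesion, Itgam reached its highest levels of all classes, at 920.8, 976.4, 1176 and 1243 CPM. This was a log2 change of 0.34 ± 0.53 without overlap, 1 of 4 members past the filter, against 11.7% of genes higher without overlap, and 0 members were lower, against 15.6% of genes. 4931431B13Rik had no UMI in neutrophils and Cox6a2 had 1. No member passed the threshold, as 0% of genes did in edgeR's test (146 of 4245 at an unadjusted p under 0.05, 1 called by DESeq2).

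Other genes of the region were followed as a list. RefSeq has 53 genes within 500 kb of Itgax, 37 matched the feature table, and 32 of these are no members. In NK cells 8 of the 32 passed the filter. Their log2 changes ran from -0.37 to 0.21 with a median of -0.07, against a median of -0.01 over all genes. None of these 8 lay between Pycard (midpoint at -147.5 kb from that of Itgax) and Tial1 (310.7 kb). The non-members nearest to Itgax therefore did not pass the filter in NK cells and have no fit there. In nonclassical monocytes 11 passed, from -0.45 to 0.45 with a median of 0.09, and in cDC2 10 passed, from -0.60 to 0.78 with a median of -0.19. The range was wider in B cells, from -1.54 to 0.74 over 22 genes, in pDC, from -1.10 to 0.29 over 8, and in classical monocytes, from -0.39 to 2.23 over 12. In neutrophils 3 passed, with a median of -0.95, in cDC1 8, from -0.76 to 0.90, and in T cells 19, from -0.37 to 0.38. Over all 9 classes the 101 tests of neighbours gave 0 calls in edgeR's test, 0 in DESeq2 and 1 at an unadjusted p under 0.05. Among the neighbours with the highest levels in NK cells were Pycard (91.3, 185.5, 124.6 and 116.7 CPM), which encodes the inflammasome adaptor ASC, and Tial1 (98.2, 92.7, 98.2 and 122.1 CPM). Both overlapped between genotypes.

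**Figure D4:**
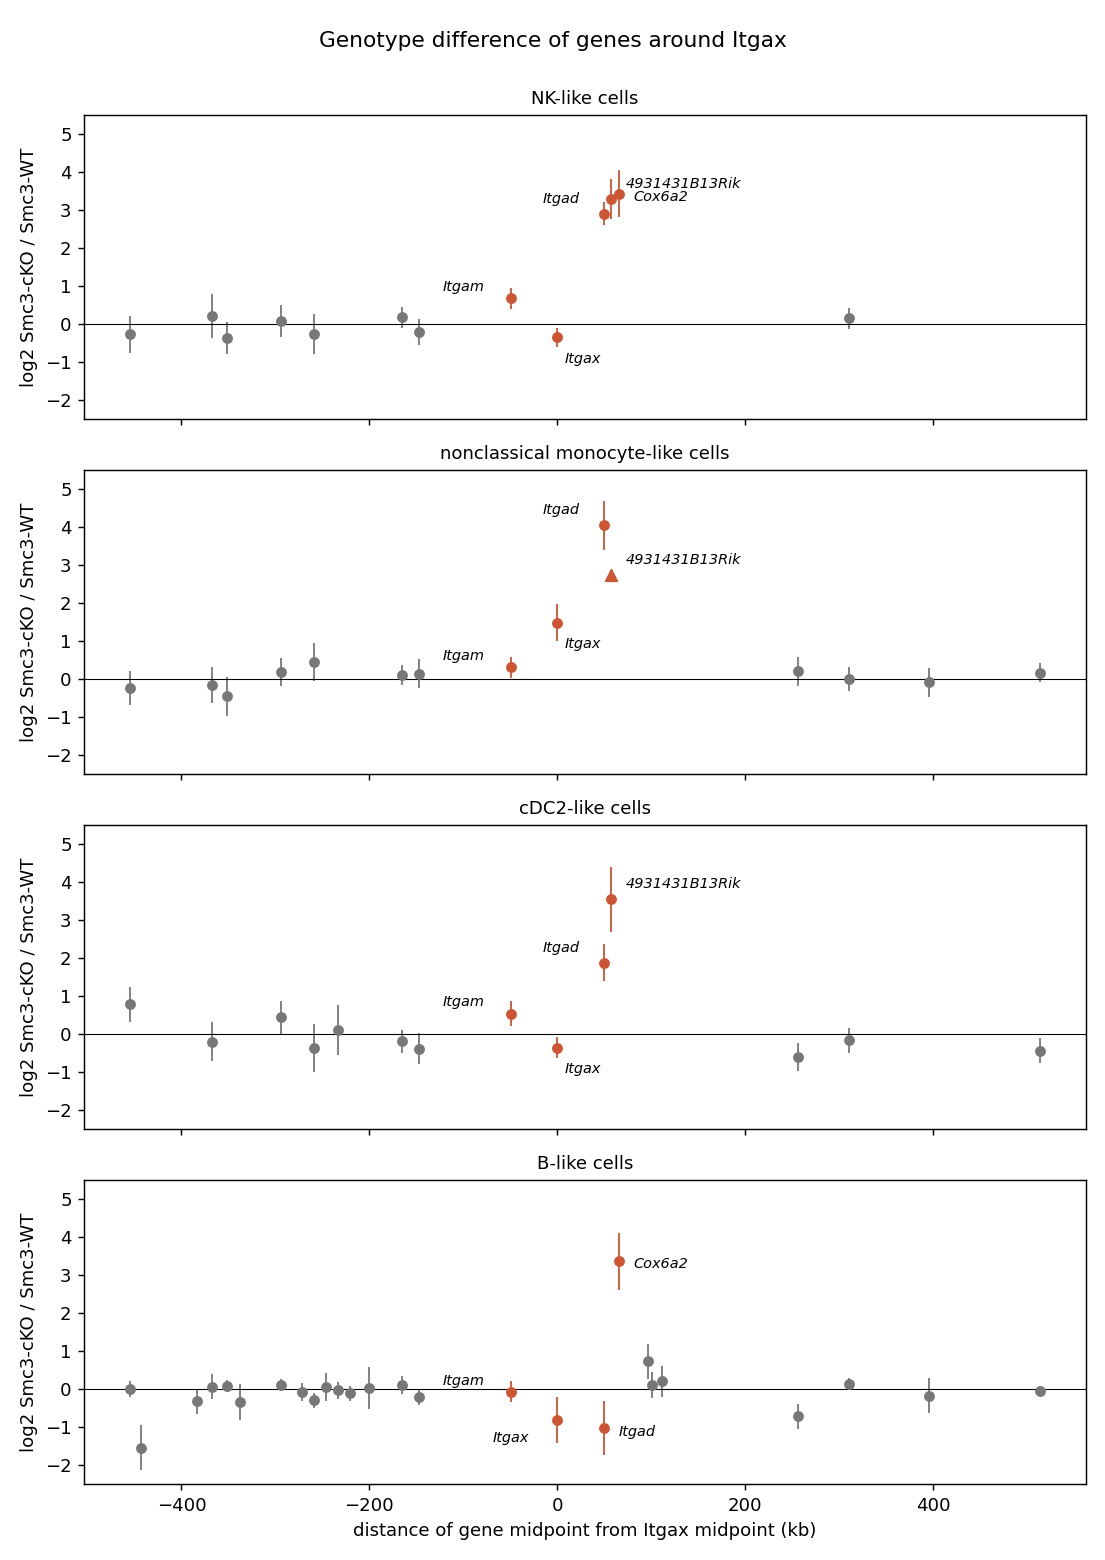
Log2 change of Smc3-cKO over Smc3-WT (y axis) of each gene past the filter on low counts, by the distance of its midpoint from that of Itgax in kb (x axis), in 4 classes; bars are standard errors of the edgeR fit, orange points are members and grey points the other genes, and the triangle is a lower bound (no UMI in Smc3-WT). The members just beyond Itgax lie at 2.90 to 3.42 in NK-like cells, and Cox6a2 lies at 3.37 in B-like cells. The members were chosen on this contrast, so nothing is read from their distance to the grey points. In NK-like cells no grey point lies between Pycard at -147.5 kb and Tial1 at 310.7 kb.

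Genes that work with the beta2 integrins were followed by lists. None of 21 other integrin subunits (78 tests over 9 classes), 8 ligands (22 tests) or 21 activation and adaptor genes (175 tests) passed in either direction with edgeR, and none did with DESeq2, while 6, 2 and 7 of these tests had an unadjusted p under 0.05. In NK cells the 8 other integrin subunits tested had a median log2 change of -0.07, with Itga4 (2009, 2058, 1867 and 1546 CPM) and Itgb1 (753.1, 689.0, 651.4 and 759.7 CPM), the chains of VLA-4, and Itga2, the DX5 antigen, as the highest. In cDC2 the 19 adaptor genes tested had a median of 0.15, from -0.78 (Fyb, which encodes the adaptor ADAP, at 1531, 1085, 689.3 and 841.5 CPM, adjusted p = 0.66 in edgeR's test) to 1.05. The ligand with the highest level in NK cells, Icam1, which encodes the main LFA-1 ligand, stood at 84.4, 103.8, 90.6 and 62.4 CPM (log2 change -0.31 ± 0.31).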

How the data were processed

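The authors deposited, for each barcode, UMI counts of genes, made with Cell Ranger 7.0.0 per the file headers. Per the submitters' processing notes the build was mm10. The smallest barcode had 500 or 501 UMIs, so a cut had been made before deposit. Gene symbols and barcodes are other deposited columns.

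A cell needed 200 genes or more and no more than 10% of its UMIs from mitochondrial genes, which 46886 met, and doublets called by Scrublet in scanpy 1.11.5 were removed, which left 44793 cells. The caller marked 0.859% and 6.21% of Smc3-WT cells and 3.61% and 6.37% of Smc3-cKO cells, below the expected 12.9%, 11.5%, 7.26% and 11.3%, so doublets remain. A cell took the class with the highest share of its markers detected, above a least number of markers. Cells with markers of another lineage were left out. These numbers were set after seeing cell and cluster counts. Clusters (Leiden, igraph 0.11.9, scikit-learn 1.9.0) left the members out of the variable genes. The names rest on RNA alone.

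Counts were summed per library and class (at least 20 cells in each library) and tested with edgeR 4.0.16 (limma 3.58.1, R 4.3.3) after filterByExpr and TMM, by the quasi-likelihood F test with Benjamini-Hochberg adjustment at 0.05. The genotype fit is 2 libraries against 2. Printed CPM are not TMM-scaled. With simulated counts on the NK sums (6828 genes), 57 of 100 genes changed by 1.5 and 94 of 100 changed by 3 on the log2 scale were recovered. On the cDC2 sums these were 51 and 93 of 100. Recovery was lower on the cDC1 sums, at 12 and 83 of 100, so smaller changes there would mostly be missed. Named were the 7 members, of each list and of the neighbours the genes past the threshold (up to 6 of the largest fold) and the 3 of highest level in a class, and the 3 genes most like each member. Alternatives were DESeq2 1.42.0, no filter, each library left out, the replicate number as a block, a stricter gate, classes from clusters, doublets kept and, between classes, the Smc3-cKO libraries. The members and lists were chosen with earlier results of these data known. Some items that this rule names are not reported here.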

Additional observations from a re-analysis of the deposited data

Results flagged for a closer look

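For 3 genes every Smc3-cKO library lay above both Smc3-WT libraries in some classes and below them in others, and the difference between the classes was not tested. For 4931431B13Rik this was the case in nonclassical monocytes, classical monocytes, NK cells and cDC2, where it was higher, against macrophages, where it was lower (171.5, 120.4, 69.3 and 71.7 CPM). The log2 changes of its mean CPM, after adding 5, were 2.94 in nonclassical monocytes and -0.9985 in macrophages, 3.94 apart. Itgax was higher in macrophages (12.9, 28.7, 30.1 and 89.7 CPM, on 8, 5, 10 and 5 UMIs) and lower in cDC1, cDC2 and NK cells, and macrophages and cDC1 were 1.72 apart. Itgax was also lower without overlap in classical monocytes (22.1, 15.2, 12.2 and 5.47 CPM), and 4931431B13Rik higher in B cells. Neither passed the filter on low counts there. Itgal was higher in macrophages and cDC2 and lower in pDC and cDC1, and macrophages and pDC were 0.90 apart, with 2 to 16 UMIs per library in macrophages. How many of all genes lie above in some classes and below in others was not counted. In every class with a genotype test at least 11.7% of genes were higher and at least 10.1% lower without overlap. Nothing is therefore read from finding 3 such genes.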

How the results depend on the processing

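Itgad in NK cells kept its direction under all alternatives, with log2 changes of 2.54 to 3.35. So did 4931431B13Rik (3.12 to 3.47) and Cox6a2 (2.85 to 4.14) there. Itgad in nonclassical monocytes (3.45 to 4.42) and in cDC2 (1.38 to 2.17) and Cox6a2 in B cells (2.22 to 4.06) kept theirs as well. These members were chosen on this contrast and did not overlap between genotypes. Leaving out 1 library could therefore hardly turn the sign, and nothing is read from the kept direction. Itgax in nonclassical monocytes ran from 0.42 (without Smc3-cKO replicate 1) to 2.06 and Cox6a2 in pDC from -0.92 to 2.42 (without Smc3-WT replicate 1 and replicate 2). The counts of called genes moved with most settings; the cause was not tested.

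Leaving out 1 library at a time, where the lone library is assumed to vary like the other genotype, gave 0 to 123 called genes in cDC1, 8 to 407 in cDC2, 0 to 45 in pDC, 0 to 352 in classical monocytes, 6 to 86 in nonclassical monocytes, 0 to 53 in neutrophils, 7 to 76 in NK cells, 0 to 84 in T cells and 0 to 46 in B cells. The highest count came without Smc3-WT replicate 2 in all of these but neutrophils, where it came without Smc3-cKO replicate 1. Without the filter on low counts, which leaves more genes tested, the counts were 59 in cDC1, 188 in cDC2, 13 in pDC, 8 in classical monocytes, 38 in nonclassical monocytes, 9 in neutrophils, 36 in NK cells, 212 in T cells and 6 in B cells. DESeq2 gave 13 in cDC1, 36 in cDC2, 2 in nonclassical monocytes, 1 in neutrophils, 1 in T cells and 5 in B cells. Classes from clusters gave 45 in cDC2. The stricter gate and the clusters left under 20 cDC1 in a library and gave no value there.

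With the replicate number as a block the counts were 20 in cDC1, 84 in cDC2, 48 in pDC, 23 in nonclassical monocytes, 16 in NK cells and 9 in B cells. Libraries with the same number share only a number in the labels, and their deviations correlated at 0.510 in B cells, 0.478 in T cells, 0.332 in pDC, 0.287 in NK cells, 0.246 in nonclassical monocytes, 0.197 in cDC2, 0.162 in cDC1, -0.00056 in classical monocytes and -0.221 in neutrophils, where the crossed pairing, added after seeing the data, called 68 genes (15 higher, 53 lower).

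Between classes, the Smc3-cKO libraries in place of Smc3-WT gave 1740 genes for pDC against cDC2, 2017 for cDC2 against classical monocytes, 564 for nonclassical against classical monocytes, 1457 for NK against T cells and 2996 for T against B cells. DESeq2 gave 173 and no filter 169 for the monocytes, and no filter 2717 for T against B cells. In the Smc3-cKO libraries the sign turned for differences that had not passed: Itgal (0.059) and Itgb2 (-0.24) in cDC2 against cDC1, Itgad (-0.15) and 4931431B13Rik (-0.72) in pDC against cDC2, Itgam (0.078) in nonclassical against classical monocytes, and Itgam (0.83) and Itgax (0.34) in T against B cells.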

Other observations

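Integrin genes outside the beta2 family differed in cDC1 without passing the threshold, and all genes named here were singled out after their values were seen. Itga1, the collagen receptor chain, stood at 47.3, 40.4, 3.69 and 0 CPM (log2 change -4.06 ± 1.17, adjusted p = 0.73 in edgeR's test). Itga8 stood at 157.7, 183.5, 73.8 and 79.1 CPM and Itgav at 142.0, 99.1, 254.7 and 222.9 CPM, with log2 changes of -1.32 ± 0.39 and 0.85 ± 0.37 (adjusted p = 0.74 and 0.9986). The genotypes did not overlap for any of the 3. Cells too few for a class sum in every library were not compared between genotypes. They were mature cDC, plasma cells, basophils, erythroid cells and megakaryocytes or platelets.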
